A study of Mus musculus with 18 samples.

Results

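The complement and coagulation plasma proteins are 42 genes chosen by name from the 15572 genes in the transcript table, 23 for complement and 19 for coagulation and fibrinolysis. All 42 were among the 14151 genes that passed the filter on low counts and were tested. By textbook source, 37 are made by hepatocytes, and 5 are made by other cells of the liver: the 3 chains of C1q by macrophages, properdin (Cfp) by leukocytes and coagulation factor VIII (F8) by sinusoidal endothelium.

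The data are from mouse liver on the C57bl/6j background. RNA-seq compared WT refed mice with JMJD1C-LKO refed mice, in which the histone demethylase JMJD1C was deleted by Cre under the albumin promoter, which acts in hepatocytes. H3K9me2 ChIP-seq was made from WT fasted and WT refed livers, and ATAC-seq, which marks open chromatin, from these 2 conditions and from JMJD1C-LKO refed livers, with 2 samples in every group. All mice were kept on chow for 6 to 8 weeks and fasted overnight, and per the labels the refed mice then had a high carbohydrate diet for 6 h, while the study's methods give a longer refeeding. The ChIP and ATAC titles carry only F or R, which were read as fasted and refed from the study's description, and the feeding state of a sample could not be checked otherwise. Each RNA library was made from pooled RNA and each ATAC or ChIP sample from a single liver, so the spread between RNA libraries is that between pools.

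Complement and coagulation are both cascades of plasma proteases, made mostly by hepatocytes and secreted as inactive precursors. Complement starts from C1q bound to antibody (classical), from mannose-binding lectins (lectin) or from C3 itself (alternative), meets at C3 and ends in a membrane pore built from C5 to C9. Coagulation starts at tissue factor or at the contact system, meets at factor X and thrombin (F2), and ends in a fibrin net that plasmin (Plg) dissolves. Many members are acute phase proteins, whose transcription in hepatocytes responds to interleukin-6 through STAT3 and C/EBP factors.

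The promoters were examined first, because the members share tissue and, in part, transcription factors. RefSeq promoters (GRCm38.p6, 250 bases before to 50 after the start) were at hand for 33 of the 42 genes, and not for C1qa, C2, C4b, Cfb, Cfi, Kng1, Masp1, Plg and Proc. Each was searched on both strands for 6 short motifs. The HNF1 motif GTTAAT was present in 12 of the 33 (36.4%), against 7.1% of all 32851 promoters of that length. The STAT motif TTCNNNGAA was present in 8 (24.2%, against 8.3%) and the C/EBP motif TTGCNNAA in 10 (30.3%, against 10.8%). The forkhead motif TGTTTAC was present in 2 (F11 and Klkb1; 6.06%, against 3.65%) and the HNF4 motif CAAAGTNCA in 1 (F9; 3.03%, against 1.41%). The E-box CACGTG, the sequence read by USF-1, with which JMJD1C was studied, was present in none of the 33 (against 7.15%). These matches describe letters in a short window and are not sites shown to be used.

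The promoters were also poor in CpG. Of the 35 promoters of these 33 genes, 33 held fewer than 10 CpG (94.3%), against 56.5% of all promoters and 26.4% of those of the genes tested. The E-box letters CACGTG include a CpG, so the 7.15% of all promoters is not a background matched in CpG. The 250 bases before the start are printed for the fibrinogen genes, which form 1 cluster of 42.1 kb (chr3:83007724-83049863), and for 6 of the members called between the RNA groups. All read 5′ to 3′ in the direction of transcription, with the matches to the 6 motifs in capitals.
Fga (chr3:83025903-83026152, plus strand): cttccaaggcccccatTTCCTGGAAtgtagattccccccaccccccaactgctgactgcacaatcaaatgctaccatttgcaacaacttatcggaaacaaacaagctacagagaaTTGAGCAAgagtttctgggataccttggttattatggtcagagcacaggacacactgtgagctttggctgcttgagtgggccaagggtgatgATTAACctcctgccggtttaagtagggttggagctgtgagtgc
Fgb (chr3:83049864-83050113, minus strand): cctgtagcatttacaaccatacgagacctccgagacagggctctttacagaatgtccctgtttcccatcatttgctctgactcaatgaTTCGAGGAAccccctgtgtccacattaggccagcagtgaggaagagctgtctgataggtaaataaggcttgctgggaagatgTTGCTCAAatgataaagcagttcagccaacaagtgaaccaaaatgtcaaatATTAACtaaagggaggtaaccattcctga
Fgg (chr3:83007474-83007723, plus strand): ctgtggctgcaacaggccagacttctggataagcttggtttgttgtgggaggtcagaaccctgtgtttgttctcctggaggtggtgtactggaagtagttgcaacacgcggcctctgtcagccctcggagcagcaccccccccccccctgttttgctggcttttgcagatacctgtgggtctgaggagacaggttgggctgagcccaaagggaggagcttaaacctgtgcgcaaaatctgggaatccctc
C1qb (chr4:136886201-136886450, minus strand): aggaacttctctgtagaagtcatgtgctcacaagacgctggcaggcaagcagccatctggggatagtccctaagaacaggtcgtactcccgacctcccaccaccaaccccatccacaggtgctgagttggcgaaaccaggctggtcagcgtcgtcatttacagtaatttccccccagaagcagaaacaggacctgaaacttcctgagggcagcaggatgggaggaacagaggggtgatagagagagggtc
C1qc (chr4:136892915-136893164, minus strand): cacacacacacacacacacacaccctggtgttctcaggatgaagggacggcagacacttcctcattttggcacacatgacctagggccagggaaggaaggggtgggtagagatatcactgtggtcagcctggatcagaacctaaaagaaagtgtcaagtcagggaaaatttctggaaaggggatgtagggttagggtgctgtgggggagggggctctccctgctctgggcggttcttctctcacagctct
C6 (chr15:4726960-4727209, plus strand): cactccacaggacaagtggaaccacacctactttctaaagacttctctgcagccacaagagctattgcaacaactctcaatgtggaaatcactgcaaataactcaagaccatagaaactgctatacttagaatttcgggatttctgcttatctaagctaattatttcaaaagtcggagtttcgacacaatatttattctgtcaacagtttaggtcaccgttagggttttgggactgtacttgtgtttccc
C9 (chr15:6445096-6445345, plus strand): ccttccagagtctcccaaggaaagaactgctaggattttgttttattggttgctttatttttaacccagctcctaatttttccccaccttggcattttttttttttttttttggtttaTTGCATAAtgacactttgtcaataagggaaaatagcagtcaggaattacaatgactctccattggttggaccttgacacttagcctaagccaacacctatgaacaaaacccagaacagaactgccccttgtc
Mbl2 (chr19:30232678-30232927, plus strand): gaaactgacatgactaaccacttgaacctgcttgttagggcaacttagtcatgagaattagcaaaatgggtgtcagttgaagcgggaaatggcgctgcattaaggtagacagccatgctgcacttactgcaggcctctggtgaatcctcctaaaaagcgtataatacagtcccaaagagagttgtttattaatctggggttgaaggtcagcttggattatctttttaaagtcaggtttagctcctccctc
F11 (chr8:45262032-45262281, minus strand): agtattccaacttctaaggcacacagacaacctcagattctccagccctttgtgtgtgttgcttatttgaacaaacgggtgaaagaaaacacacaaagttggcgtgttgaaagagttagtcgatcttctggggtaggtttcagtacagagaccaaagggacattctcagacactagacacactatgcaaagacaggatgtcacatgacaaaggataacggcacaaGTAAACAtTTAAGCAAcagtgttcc

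Fga and Fgb each held 1 HNF1, 1 STAT and 1 C/EBP match. In Fga, counted from the start, the HNF1 match lay at -43 to -38, the C/EBP match at -135 to -128 and the STAT match at -234 to -226. In Fgb they lay at -29 to -24, -80 to -73 and -162 to -154, in the same order. Fgg held none of the 6 motifs, and neither did C1qb, C1qc, C6 or Mbl2 in the stretch printed. F11, the contact-route zymogen, held a forkhead match at -25 to -19 next to a C/EBP match at -17 to -10, and its neighbor Klkb1, plasma prekallikrein, held a forkhead match at -21 to -15. The only match outside hepatocyte genes was an HNF1 match in Cfp at -18 to -13.

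Before the members, the targeted gene was examined in the RNA libraries. Jmjd1c had 1140 and 1188 estimated counts in the WT libraries and 990 and 1129 in the libraries labelled JMJD1C-LKO (log2 fold change -0.14, SE 0.08, edgeR adjusted p = 0.233, 2 listed transcripts). The study reported lower Jmjd1c mRNA by RT-qPCR and no detectable protein in JMJD1C-LKO livers, a larger loss than in these counts. In these libraries the groups did not overlap, but the difference did not pass the test, and counts over whole transcripts do not see a single deleted exon. The labels were therefore not checked by this gene, every direction below is that of the libraries labelled JMJD1C-LKO (LKO-labelled 1 and 2), and genotype is taken from the labels. The libraries held 51265128 to 54400509 estimated counts, and 14.6% of the genes tested were higher and 13.4% lower in the LKO-labelled libraries by edgeR's quasi-likelihood test at an adjusted p under 0.05.

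The liver makes the members at very different levels. In the WT libraries, on a scale that corrects for transcript length (TPM), the adhesive protein vitronectin (Vtn, 3291 and 3311 TPM) and the fibrinogen beta chain (Fgb, 3171 and 3195 TPM) stood highest, at ranks 34 and 35 of all genes. Complement C3 (mean 2463 TPM), the fibrinogen gamma chain Fgg (2038 TPM), kininogen Kng1 (1994 TPM), prothrombin F2 (1622 TPM), plasminogen Plg (1531 TPM) and the fibrinogen alpha chain Fga (1333 TPM) followed. F8 was lowest, at 1.12 and 1.22 TPM. Between them lay the lectin route at 19.6 TPM (Masp1) to 779 TPM (Mbl2), and the vitamin K dependent proteases F7 (86.1 TPM), F9 (100.1 TPM) and F10 (371 TPM). The 42 genes together made up 2.49% and 2.60% of all TPM in the WT libraries and 2.70% and 2.57% in the LKO-labelled ones.

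**Figure D1:**
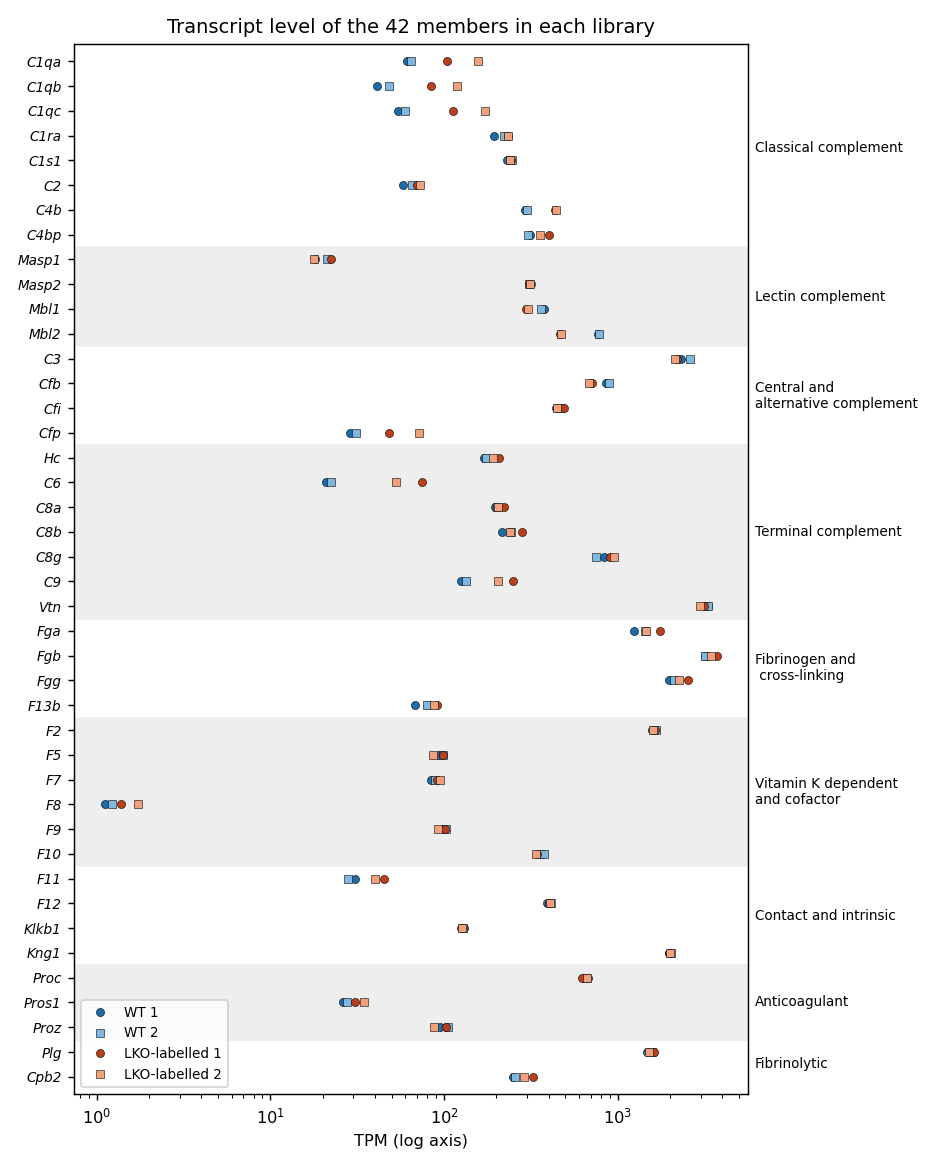
Level of each member in TPM on a log axis, 1 symbol per library (blue, WT 1 and 2; red, LKO-labelled 1 and 2), grouped by role. Most members lay close together in the 4 libraries; C6, the C1q chains, Cfp, C9 and Mbl2 separated by group, and F8 was the lowest of all at 1.12 to 1.74 TPM.

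Of the 42 members, 13 were higher in the LKO-labelled libraries, 3 were lower and 26 did not pass the test. The share higher was 31.0%, against 14.6% of all genes, and the share lower 7.14%, against 13.4%. The median log2 fold change was 0.16, against 0.01 for all genes tested. Both LKO-labelled libraries lay above both WT libraries for 23 members (54.8%, against 33.7% of all genes) and below for 6 (14.3%, against 33.8%). The counts rested on both WT libraries: with WT 1 left out 8 members were higher and 1 lower, and with WT 2 left out 7 and 1. Of the 16 calls, 8 held under all 10 other settings tried, those of C6, C9, C4b, Cfp, Mbl2 and the C1q chains. These counts describe the list, since its members share libraries and, mostly, a cell type.

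More complement than coagulation members passed the test. Of the 23 complement members, 9 rose and 3 fell, with a median log2 fold change of 0.21 and a range of -0.71 to 1.59. Of the 19 coagulation members, 4 rose and none fell by edgeR or DESeq2 (none at an unadjusted p under 0.05), with a median of 0.06 and a range of -0.09 to 0.56. With 1 library left out the complement median lay between 0.14 (without WT 1 or without LKO-labelled 1) and 0.251 (without LKO-labelled 2). The coagulation median was 0.027 without WT 1, 0.086 without WT 2, 0.011 without LKO-labelled 1 and 0.146 without LKO-labelled 2. Among hepatocyte members alone, 5 complement genes rose and 3 fell of 19, and 4 coagulation genes rose of 18. The 19 hepatocyte complement genes summed to 11020 and 11430 TPM in the WT libraries and 10940 and 10530 TPM in the LKO-labelled ones, and the 18 hepatocyte coagulation genes to 13710 and 14360 TPM against 15690 and 14590 TPM. The ratio of complement to coagulation TPM was therefore 0.804 and 0.796 in the WT libraries and 0.697 and 0.722 in the LKO-labelled ones, without overlap. Within these sums Mbl2 (mean 779 to 467 TPM), C3 (2463 to 2173 TPM), Vtn (3301 to 3042 TPM) and Cfb (873 to 698 TPM) lay lower. The fibrinogen chains lay higher in the LKO-labelled libraries. Of these genes only Mbl2 and Cfb passed the test. The coagulation count changed with the library left out, from 4 to 1 without WT 1, 0 without WT 2, 3 without LKO-labelled 1 and 7 without LKO-labelled 2. No test was made of the difference between the families, and an exact permutation test of 2 libraries against 2 could not reach 0.05.

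**Figure D2:**
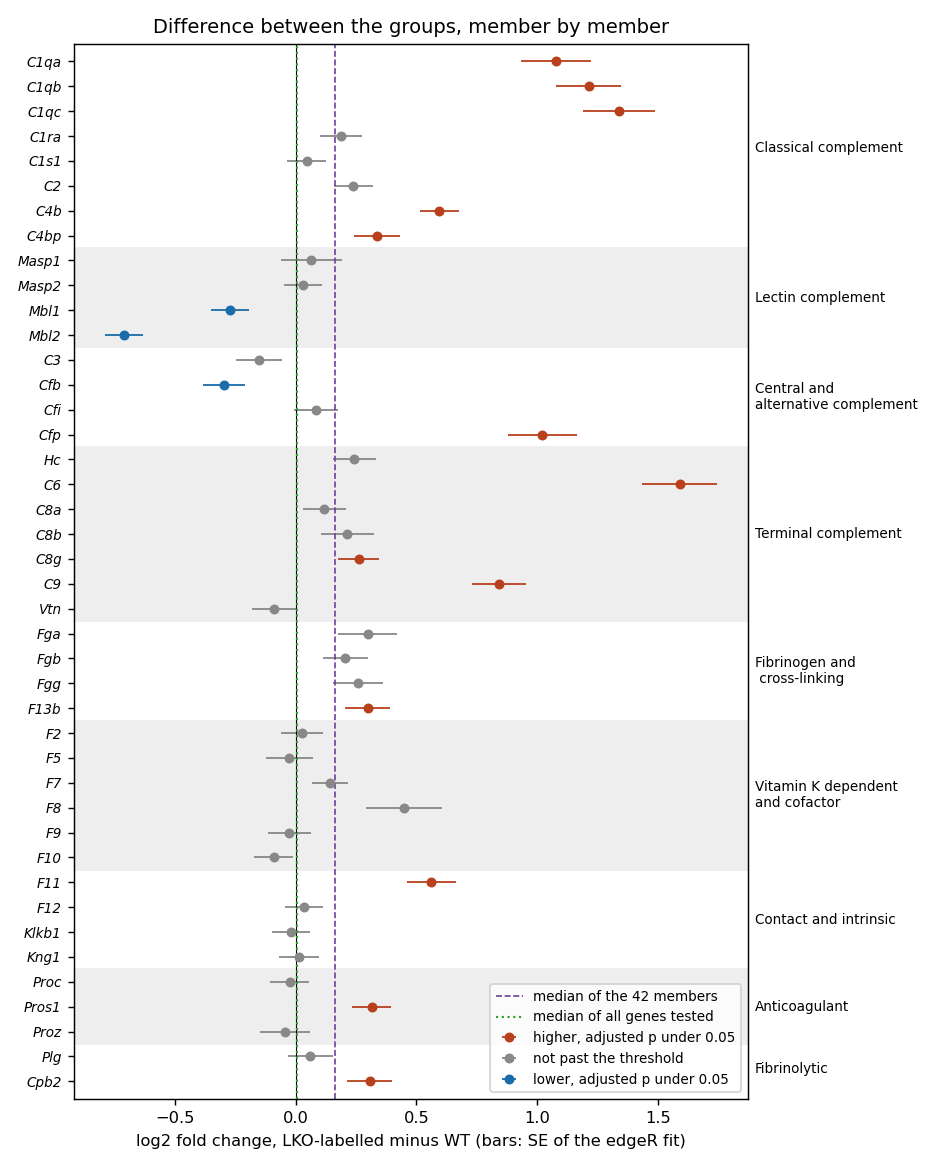
Log2 fold change of each member (LKO-labelled minus WT, bars are the SE of the edgeR fit), with the medians of the members (0.16) and of all genes tested (0.01) as vertical lines. Red points rose and blue points fell at an adjusted p under 0.05; the largest are C6 (1.59), the C1q chains (1.08 to 1.34), Cfp (1.02) and Mbl2 (-0.71).

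The 2 LKO-labelled libraries were not alike. Of the 37 hepatocyte members, 34 were higher in LKO-labelled 1 than in LKO-labelled 2, against 49.4% of all genes tested, and their median difference was -0.14 on the log2 scale (LKO-labelled 2 minus 1). The 5 members made by other cells all lay higher in LKO-labelled 2. The largest log2 difference between 2 libraries of a group was 0.58 among LKO-labelled and 0.20 among WT libraries. Several calls near the threshold depended on which libraries were used. With either WT library left out, C8g, Cfb, C4bp, Mbl1, F13b, Pros1 and Cpb2 no longer passed (edgeR adjusted p 0.0873 to 0.38), with the same signs and with log2 fold changes of 0.181 (C8g) to 0.399 (F13b) for those that lay higher and of -0.229 to -0.323 for Mbl1 and Cfb, and the calls that changed with an LKO-labelled library left out are named with the genes.

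In the classical route, all 3 chains of C1q, the recognition molecule, rose. Levels are given in CPM, which are counts scaled to the library total after adjustment of that total by its TMM factor. C1qa was at 38.8 and 40.3 CPM in the WT libraries and at 68.5 and 98.7 CPM in the LKO-labelled ones (log2 fold change 1.08, SE 0.14, edgeR adjusted p = 0.00091). C1qb was at 26.5 and 30.5 against 56.3 and 75.9 CPM (1.21, SE 0.14, edgeR adjusted p = 0.000344). C1qc was at 33.6 and 36.3 against 72.0 and 104.5 CPM (1.34, SE 0.15, edgeR adjusted p = 0.00035). The groups did not overlap for any chain, LKO-labelled 2 was the highest library for each, and the 3 genes lie side by side in 18.7 kb (chr4:136880126-136898844). The protein holds equal numbers of each chain, and on the TPM scale the chains stood close to each other, with C1qc over C1qb at 1.32 and 1.25 in the WT libraries and 1.34 and 1.44 in the LKO-labelled ones, and C1qa over C1qb at 1.49, 1.35, 1.24 and 1.33.

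Properdin, which stabilises the alternative C3 convertase, moved with C1q. Cfp was at 27.7 and 29.3 CPM in the WT libraries and at 47.8 and 67.9 CPM in the LKO-labelled ones (log2 fold change 1.02, SE 0.14, edgeR adjusted p = 0.00109). F8, the cofactor of factor IX, was at 4.80 and 5.14 against 6.17 and 7.39 CPM, without overlap (0.45, SE 0.16, edgeR adjusted p = 0.0581). F8 did not pass the test, but did with LKO-labelled 1 left out (adjusted p = 0.0129).

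Markers of the cells that make these members moved with them. Of 12 Kupffer cell and macrophage markers, 11 rose and 1, the iron exporter Slc40a1, fell, with summed levels of 419 and 442 CPM in the WT libraries and 644 and 859 CPM in the LKO-labelled ones, and no marker was at 0. Of these, Marco, a scavenger receptor, rose by 1.46 on the log2 scale (23.3 to 26.3 against 56.3 to 79.8 CPM), Cd5l by 1.46 and Adgre1, the F4/80 antigen, by 2.25. Of 9 markers of sinusoidal endothelium 7 rose (summed 167 to 170 against 222 to 299 CPM), with Stab2, a scavenger receptor, at 0.82. Of 6 neutrophil and monocyte markers 4 rose, of 7 lymphocyte markers 2, of 6 stellate cell markers 1 and of 4 cholangiocyte markers none by edgeR or DESeq2 (1 at an unadjusted p under 0.05, lower). In whole liver, more cells of a type and more RNA per cell cannot be told apart.

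The members were set against the markers within each library. The summed C1q chains over Clec4f, a lectin of Kupffer cells, stood at 1.18 and 1.27 in the WT libraries and at 1.41 and 1.46 in the LKO-labelled ones, and over the whole macrophage list at 0.236 and 0.242 against 0.306 and 0.325. Both ratios were higher in the LKO-labelled libraries without overlap, yet they differed far less than the C1q level itself. A ratio to a single marker depends on the marker chosen. Clec4f rose by 0.97 on the log2 scale, less than each C1q chain (1.08 to 1.34). Marco and Cd5l rose by 1.46 and Adgre1 by 2.25, more than each chain. The median of the 12 macrophage markers was 1.09, within the range of the chains. The list includes Slc40a1, the marker that fell, which was its most abundant gene in the WT libraries. Slc40a1 was at 154.6 and 171.1 CPM in the WT libraries and at 134.0 and 122.6 CPM in the LKO-labelled ones. The separation over the whole list depends on this marker, which the ratio to Clec4f does not include. Cfp over Clec4f lay at 0.331 and 0.347 against 0.342 and 0.356, where the groups overlapped. F8 over Stab2 lay at 0.182 and 0.186 against 0.153 and 0.135, lower in both LKO-labelled libraries. That direction too depends on the marker chosen. Stab2 rose by 0.82 on the log2 scale, more than the median of the 9 endothelium markers (0.61, range 0.21 to 0.97). F8, at 0.45, lay within that range.

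**Figure D3:**
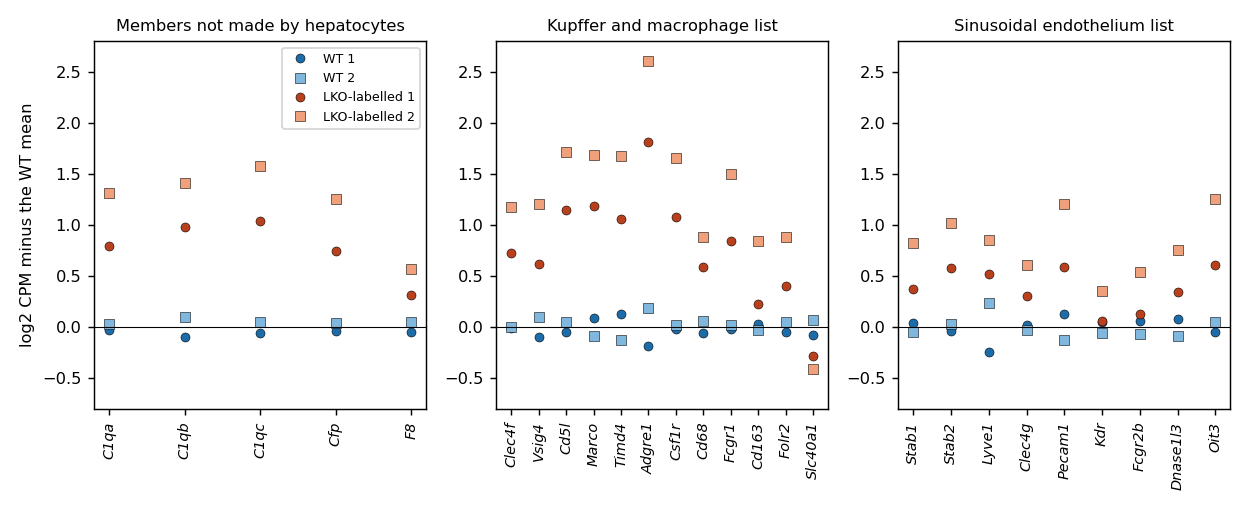
Log2 CPM of each gene minus its WT mean, 1 symbol per library, for the 5 members not made by hepatocytes (left), 12 Kupffer cell and macrophage markers (middle) and 9 sinusoidal endothelium markers (right). In the left panel both LKO-labelled libraries lie above both WT libraries for all 5 genes, with LKO-labelled 2 highest; Slc40a1 is the marker that goes the other way.

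The hepatocyte members of the classical route moved less. C4b, which carries the covalent tag of the classical and lectin routes, rose from 923 and 932 CPM to 1422 and 1380 CPM (log2 fold change 0.59, SE 0.08, edgeR adjusted p = 0.001), a 1.51-fold difference far beyond the gap within either group. Its near-identical neighbor C4a, which can share reads with it, lay at 6.75 to 6.88 against 10.4 to 11.5 CPM. C4bp, the soluble inhibitor of C4b, rose from 344 and 331 to 462 and 391 CPM (0.34, SE 0.10, edgeR adjusted p = 0.0273), but not with LKO-labelled 1 left out (adjusted p = 0.0729). The proteases C1ra (log2 fold change 0.19), C1s1 (0.04) and C2 (0.24, edgeR adjusted p = 0.0531) did not pass the test. C2 lay at 90.2 and 98.9 CPM against 113 and 111 CPM, without overlap.

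In the lectin route 2 genes fell and none rose by edgeR or DESeq2 (none at an unadjusted p under 0.05). Mbl2, a mannose-binding lectin (chr19), fell from 501 and 497 CPM in the WT libraries to 310 and 300 CPM in the LKO-labelled ones (log2 fold change -0.71, SE 0.08, edgeR adjusted p = 0.000337). Mbl1 fell from 205 and 192 to 165 and 163 CPM (-0.27, SE 0.08, edgeR adjusted p = 0.0287). The libraries of a group differed little for both lectins, and Mbl2 over Mbl1 on the TPM scale went from 2.05 and 2.17 to 1.57 and 1.54. The proteases they activate did not pass the test: Masp1 (0.07, SE 0.13) and Masp2 (0.03, SE 0.08) overlapped between groups. Most of the Masp2 TPM, 65.2% to 67.2% in the 4 libraries, was in its shorter transcript of 744 bases, which codes for a form without the protease domain, and the longer transcript held the rest with no difference between groups.

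In the center of the cascade, C3 and factor B (Cfb), which form the alternative convertase, lay lower. C3 was at 6977 and 7724 CPM in the WT libraries and at 6874 and 6356 CPM in the LKO-labelled ones (log2 fold change -0.15, SE 0.10, edgeR adjusted p = 0.275), without overlap but within the test's error. Cfb fell from 1376 and 1410 to 1188 and 1082 CPM (-0.30, SE 0.09, edgeR adjusted p = 0.0306), but not with LKO-labelled 2 left out (adjusted p = 0.0794). Factor I (Cfi), which cleaves C3b, overlapped (0.08). Cfb lies between C4b and C2 in the major histocompatibility complex (chr17:34728380-34882100), so neighbors within 153.7 kb lay in opposite directions: 0.59 for C4b, -0.30 for Cfb and 0.24 for C2.

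The terminal route held the largest difference of all members. C6 (chr15:4727210-4804045), a subunit of the membrane pore, was at 34.9 and 36.7 CPM in the WT libraries and at 129 and 86.5 CPM in the LKO-labelled ones (log2 fold change 1.59, SE 0.16, edgeR adjusted p = 0.00021). That is a 3.01-fold difference, and the 2 LKO-labelled libraries themselves lay 0.58 apart on the log2 scale. C9, which polymerises to form the pore wall and lies with C6 in 1771.6 kb of the same chromosome, was at 154 and 162 against 319 and 248 CPM (0.84, SE 0.11, edgeR adjusted p = 0.000928). Unlike C1q, both were highest in LKO-labelled 1, and 34 of the 37 hepatocyte members were higher there than in LKO-labelled 2. LKO-labelled 1 had the lower summed macrophage markers of the 2 (644 against 859 CPM), still above both WT libraries.

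The other pore subunits moved less than C6. C8g was at 415 and 373 against 471 and 474 CPM (log2 fold change 0.26, SE 0.09, edgeR adjusted p = 0.0464), and this call was lost without a filter on low counts (adjusted p = 0.0543) and with LKO-labelled 2 left out (adjusted p = 0.0652). Its partners C8a (0.12) and C8b (0.21) and the gene of C5, Hc (0.24, edgeR adjusted p = 0.0691), did not pass the test, although Hc and C8b did with LKO-labelled 2 left out (adjusted p = 0.0148 and 0.0149). The ratio of Hc to C6 TPM went from 8.12 and 7.75 to 2.77 and 3.64, and of C9 to C6 from 5.97 and 5.95 to 3.33 and 3.88. Vtn, which blocks pore insertion, was at 3374 and 3321 against 3301 and 2990 CPM (-0.09, SE 0.09).

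The 3 fibrinogen chains lay higher together but none passed the test. Fgb was at 3177 and 3131 CPM in the WT libraries and at 3877 and 3401 CPM in the LKO-labelled ones (log2 fold change 0.21, SE 0.10, edgeR adjusted p = 0.136). Fga was at 2442 and 2769 against 3577 and 2831 CPM (0.30, SE 0.12, edgeR adjusted p = 0.0953), and Fgg at 2001 and 2105 against 2672 and 2236 CPM (0.26, SE 0.10, edgeR adjusted p = 0.0911). The groups did not overlap for any chain, and LKO-labelled 1 was the highest library for each. All 3 passed with LKO-labelled 2 left out (adjusted p = 0.00814 for Fga, 0.0319 for Fgb and 0.011 for Fgg), and Fga did with DESeq2 (adjusted p = 0.0484). On the TPM scale Fga over Fgb lay at 0.389 to 0.448 in the WT libraries and 0.422 to 0.468 in the LKO-labelled ones, and Fgg over Fgb at 0.618 to 0.662 against 0.650 to 0.681, so both ratios overlapped.

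Within Fgg, the estimated share of the shorter of 2 transcripts, of 1702 bases, was 81.3% and 84.0% of TPM in the WT libraries and 88.0% and 88.1% in the LKO-labelled ones. Within Kng1, the precursor of bradykinin, the longest transcript, of 2299 bases, held 13.5% and 14.1% against 10.5% and 9.87%. These splits are estimates of the authors' software and were not tested. F13b, the carrier subunit of the fibrin cross-linking enzyme, rose from 95.1 and 110 to 131 and 121 CPM (0.30, SE 0.09, edgeR adjusted p = 0.0383), but not with LKO-labelled 1 left out (adjusted p = 0.0768).

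None of the 6 vitamin K dependent proteases and their cofactors passed by edgeR or DESeq2 (1, F8, at an unadjusted p under 0.05). F2, the most abundant of them, was at 1888 and 1940 CPM in the WT libraries and at 2030 and 1864 CPM in the LKO-labelled ones (log2 fold change 0.02, SE 0.09). The values were -0.03 for F5, 0.14 for F7, -0.03 for F9 and -0.09 for F10. In this class the median was -0.001 on the log2 scale and the widest fold change was that of F8, the single member from endothelium. F7, F10 and Proz lie side by side (chr8:13026034-13076026), with values of -0.09 to 0.14.

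Of the contact route, F11 alone rose. F11 was at 40.5 and 36.3 CPM in the WT libraries and at 61.6 and 51.8 CPM in the LKO-labelled ones (log2 fold change 0.56, SE 0.10, edgeR adjusted p = 0.00384). With WT 2 left out it no longer passed (adjusted p = 0.075). Its neighbor Klkb1, within the same 53.7 kb (chr8:45241168-45294835), lay at 401 and 387 against 396 and 382 CPM (-0.02, SE 0.08). Kng1, the most abundant of the class, was at 2280 and 2304 against 2357 and 2269 CPM (0.01, SE 0.08), and F12, the contact factor that starts the route, differed by 0.03.

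Among anticoagulants, Pros1, protein S, the cofactor of activated protein C, rose from 50.5 and 52.1 to 61.6 and 66.0 CPM (log2 fold change 0.31, SE 0.08, edgeR adjusted p = 0.0166). It was the only called hepatocyte coagulation gene that lay higher in LKO-labelled 2. Proc, protein C itself and the most abundant of the class, was at 628 and 594 against 597 and 605 CPM (-0.02, SE 0.08), and Proz at -0.04. Of the fibrinolytic genes, Cpb2, which codes for an inhibitor of fibrin breakdown, rose from 217 and 218 to 291 and 247 CPM (0.31, SE 0.09, edgeR adjusted p = 0.0361), but not with LKO-labelled 1 left out (adjusted p = 0.107). Plg was at 2399 and 2501 against 2711 and 2396 CPM (0.06, SE 0.09).

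The other genes of both pathways were read from fixed lists. Of 16 complement regulators and receptors tested, 5 rose and 1 fell. Itgb2, an integrin subunit of the leukocyte receptors for cleaved C3, rose by 1.46 on the log2 scale (edgeR adjusted p = 0.00137), Cd55, the decay accelerator, rose by 0.83, and the mitochondrial protein C1qbp fell by 0.39. Itgb2, a leukocyte gene, was highest in LKO-labelled 2, like the macrophage markers that rose. Of 15 coagulation inhibitors, cellular factors and fibrinolysis genes, 2 rose, thrombomodulin Thbd (1.63, edgeR adjusted p = 0.0015) and Serpinf2, the plasmin inhibitor (0.34), and tissue factor F3 fell (-0.88). Of 5 genes of the vitamin K cycle and of factor export, 2 fell and none rose by edgeR or DESeq2 (none at an unadjusted p under 0.05): Lman1, the cargo receptor for factors V and VIII (-0.45, edgeR adjusted p = 0.011), and Vkorc1, the target of warfarin (-0.29, edgeR adjusted p = 0.0199).

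The hepatocyte identity and acute phase genes were set beside the members. The libraries carried the markers of liver, with Alb, albumin, at 71440 to 86050 CPM in all 4. Of 7 hepatocyte markers tested, 1 rose, Cps1 of the urea cycle (0.64), and the other 6 did not pass the test. Of 14 acute phase genes, 10 rose, and those of smallest p were Saa1 (11.6 and 13.3 against 72.6 and 73.7 CPM), Lcn2 (2.58 on the log2 scale) and Orm2 (1.86). Of 6 genes of the interleukin-6 route, the receptor Il6ra (0.62) and Stat3 (0.47) rose. Of 14 liver transcription factors, 3 rose, among them Cebpd (1.86) and Cebpb (1.05), and 8 fell, among them Onecut1 (-1.21). Their part in the differences of the members was not tested.

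H3K9me2 is usually found at silent chromatin, and JMJD1C has been studied as an enzyme that removes it. At the chromatin level, 1 sample stood apart. The H3K9me2 list of WT refed 1 held 1297 summits, against 7690, 13456 and 9929 in WT fasted 1, WT fasted 2 and WT refed 2, and only 0.123% of the 13825 tested genes with a start had a summit within 1000 bp there. No member had a summit in it. The numbers for refed livers therefore come from WT refed 2 alone, with no replicate. The lists give summit positions and -log10 q, with no read counts, so the depth behind them is unknown.

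H3K9me2 summits lay at most hepatocyte members. Within 1000 bp of a RefSeq start, 23 members had a summit in WT fasted 1 (54.8%, against 51.6% of genes tested), 36 in WT fasted 2 (85.7%, against 74.1%) and 36 in WT refed 2 (85.7%, against 61.6%). In both fasted replicates 22 members had 1 (against 51.3%), and in both refed replicates none (against 0.0723%). The mark was on 35 members in both WT fasted 2 and WT refed 2, so presence or absence of a summit hardly differed between these livers. Fgb lacked 1 in WT fasted 2 and C8a in WT refed 2. Coagulation members had summits in WT fasted 1 more often than complement members, 14 of 18 hepatocyte genes against 9 of 19. This was not so in WT fasted 2, with 17 of 18 against 19 of 19. WT refed 2 had 18 of 18 against 18 of 19, and no test was made.

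The 5 members not made by hepatocytes had no H3K9me2 summit in any sample. C1qa, C1qb, C1qc and Cfp are expressed in whole liver at 30.0 to 62.9 TPM, and of the genes tested at 10 to 100 TPM 94.9% had a summit in WT fasted 2 and 86.8% in WT refed 2. The 8 hepatocyte members in that range, C6, F11, Pros1 and Masp1 among them, had 1 in both. The split was less clean in WT fasted 1, where only 4 of all 12 members in that range had 1, against 76.5% of genes tested. F11 and Masp1 were among those without. Of the 12 macrophage markers only Slc40a1 had a summit, in all 3 lists, and of 9 endothelium markers 0, 4 and 0 in WT fasted 1, WT fasted 2 and WT refed 2. Of 7 hepatocyte markers 7, 6 and 4 did, and of 14 liver transcription factors 13, 14 and 11. Of 14 acute phase genes only 5, 8 and 7 did, and Saa1, Lcn2 and Orm2 had none in any list. A missing summit was thus not particular to members made by other cells. Among genes at 100 TPM or more, 83.5%, 95.0% and 90.5% had a summit, against 19, 28 and 28 of 29 members.

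**Figure D4:**
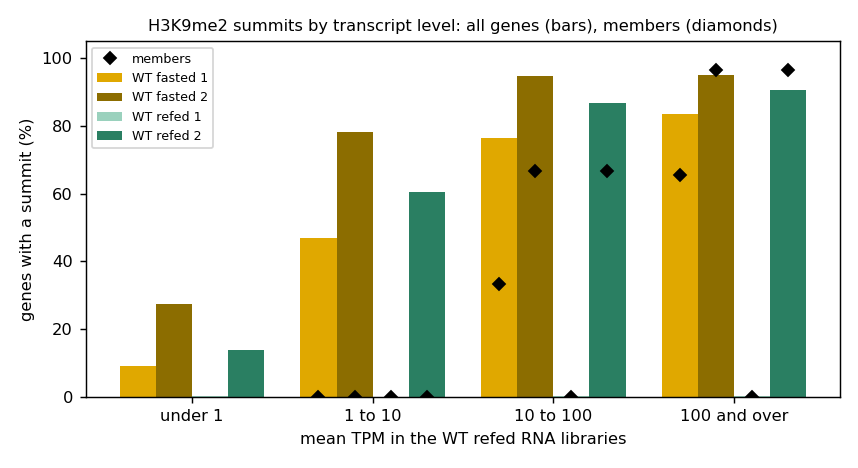
Share of genes tested with an H3K9me2 summit within 1000 bp of a start, by mean TPM in the WT RNA libraries, for the 4 samples (bars), with the share of members as diamonds. The share of all genes rises with level in WT fasted 1, WT fasted 2 and WT refed 2, members at 10 to 100 TPM lie under it (8 of 12 in WT fasted 2), and WT refed 1 is near 0 throughout.

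The summits sat inside the genes. For every one of the 36 members in WT fasted 2 and the 36 in WT refed 2 the strongest summit lay downstream of the start, against 83.8% and 83.5% of genes tested, at a median of 294.5 and 391 bp, against 230 and 265 bp. In WT fasted 1 it did for 22 of 23, the other being C8g, whose start lies 244 bp from that of Fbxw5. The median rank of the members' summits was 28.3% from the top of the list in WT fasted 2 and 31.9% in WT refed 2, against 36.0% and 41.6% for genes tested, but 44.2% against 44.4% in WT fasted 1. Plg had the strongest, at rank 77 of 13456 in WT fasted 2 (score 107.6, 292 bp into the gene) and rank 416 of 9929 in WT refed 2. F2 was the strongest member in WT refed 2, at rank 347 (score 41.2).

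**Figure D5:**
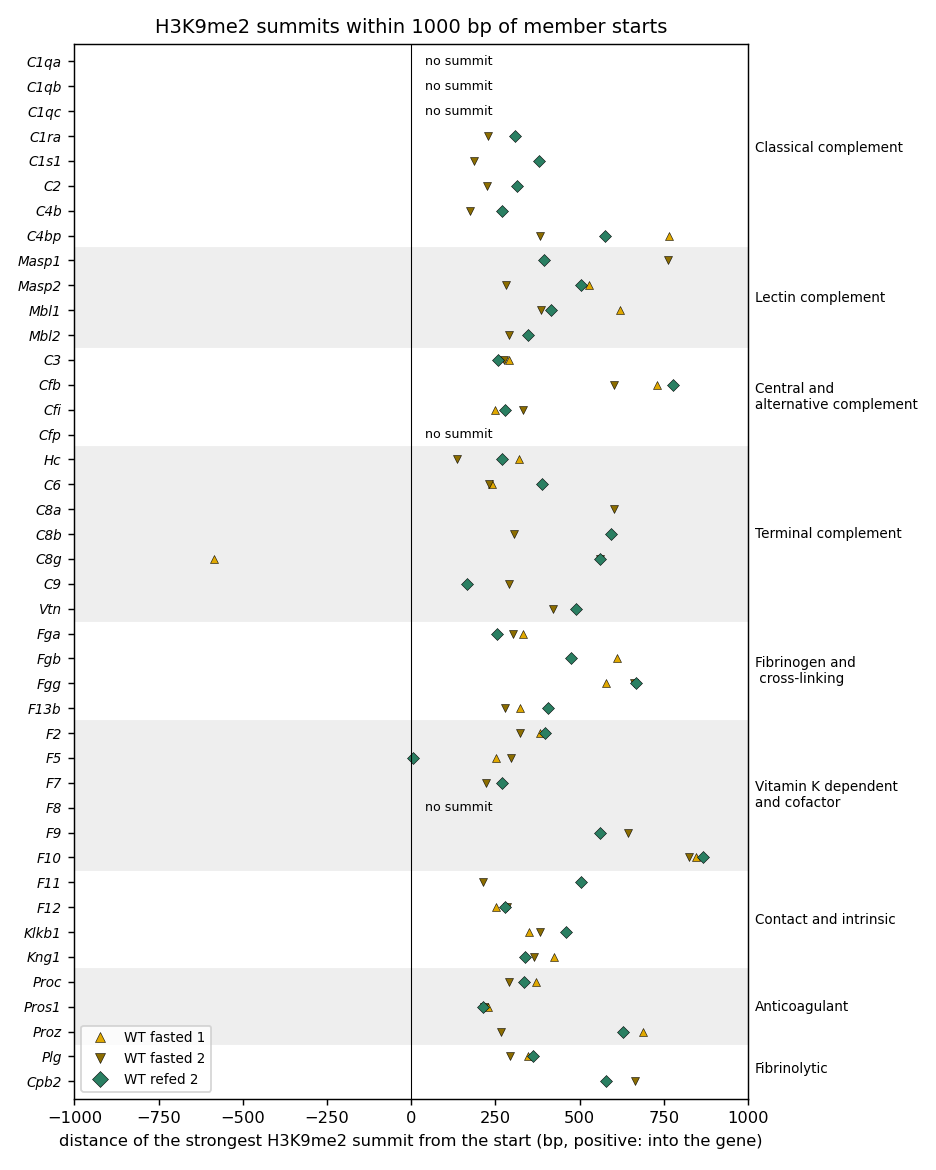
Distance in bp from the start of each member to its strongest H3K9me2 summit within 1000 bp (positive values lie in the gene), for WT fasted 1 and 2 and WT refed 2, grouped by role. Nearly all summits lie between 137 and 866 bp into the gene. The C1q chains, Cfp and F8 have none. C8g in WT fasted 1 is the 1 point before a start, measured from the nearer of its starts and still within the gene.

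Around F2 the summit was intronic and held its place between livers. It lay 322 bp from the start in WT fasted 2 (rank 700) and 398 bp in WT refed 2, in an intron of F2. WT fasted 1 also had a summit there, 383 bp from the start (rank 445). The 201 bases around the WT refed 2 summit are printed, with the WT fasted 2 and WT refed 2 summits as capitals, WT fasted 2 the first. The WT fasted 1 summit lies between them and is not capitalised.
F2 (chr2:91635959-91636159, minus strand): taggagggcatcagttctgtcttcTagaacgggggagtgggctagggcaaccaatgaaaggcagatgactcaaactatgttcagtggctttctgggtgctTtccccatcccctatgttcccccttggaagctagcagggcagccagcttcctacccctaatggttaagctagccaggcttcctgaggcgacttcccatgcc

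The mark was not tested between members that were called in the RNA-seq and those that were not. C6, which rose most, had summits at 231, 388 and 240 bp in WT fasted 2, WT refed 2 and WT fasted 1, at ranks 22.6%, 36.1% and 55.8% from the top. Mbl2, which fell most among members, had summits at 291 and 348 bp, at ranks 48.6% and 59.5%. H3K9me2 was not measured in LKO livers, so no difference by genotype can be read from these lists.

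Open chromatin summits were scarce at the members. ATAC summits within 1000 bp of a start were found for 3 members in WT fasted 1 (7.14%, against 20.2% of genes tested): C1s1 at the start itself, Fga 254 bp and Kng1 342 bp before it. Their ranks from the strongest were 5013, 5058 and 3059 of the 5220 summits in that list. No member had 1 in WT fasted 2 (against 9.28%), WT refed 1 (16.7%), WT refed 2 (10.5%), LKO-labelled 1 (6.66%) or LKO-labelled 2 (1.31%). None of the 3 was found in both fasted replicates, and none had a score of 5 or more. Genes of the same level were not as bare: of those at 100 TPM or more, 10.5% to 20.2% had a summit in the 4 WT samples. The lists of the LKO-labelled livers were short, with 1450 and 825 summits against 3119 to 7632 in WT livers, so an absence there is an absence from a short list.

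The nearest ATAC summits were far from most members. The median distance from a member's start was 76298.5 and 97115.5 bp in WT fasted livers, 153328 and 177354 bp in WT refed livers and 622524 and 972674 bp in the LKO-labelled ones. Within 10000 bp of a start, 6 and 1 members had a summit in WT fasted livers, 3 and 5 in WT refed livers and none in the LKO-labelled livers. These distances and counts were not computed for other genes, so nothing particular to the members can be read from them. No comparison of ATAC summits between the groups was made for these genes.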

How the data were processed

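RNA-seq, ATAC-seq and H3K9me2 ChIP-seq of mouse liver were analysed. The members and gene lists were chosen with earlier results of these data known. For RNA-seq, the deposited values are estimated counts per RefSeq transcript (mm10), which the authors made with HISAT2 and Partek per the labels. They were summed per gene and rounded, and tested in R 4.3.3 with edgeR 4.0.16 (filterByExpr, TMM, quasi-likelihood F test, Benjamini-Hochberg over 14151 genes, threshold 0.05). TPM was computed from 24682 of 24994 transcripts matched to RefSeq lengths. Between 65.4% and 65.9% of the count values in a library were fractional, at a tolerance of 1e-06. Replicates were separate libraries, which differed beyond sampling noise (chi-square per degree of freedom 12.9 in WT and 32.6 in LKO-labelled libraries).

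For peaks, the authors called summits per sample with MACS2 2.1.1, and the deposited score is -log10 of the q-value. The strongest summit within 1000 bp of a RefSeq start (GRCm38.p6, the same build) was taken, and the depth behind the lists is not given. Bowtie2 or BWA was used for alignment per the methods. A deposited gene list holding the authors' fold changes, p-values and false discovery rates was not used. Alternatives were DESeq2 1.42.0, other scaling, no filter, each library left out, a replicate block, the most abundant transcript, other distances, a score of at least 5 and equal list lengths. The code was tested on simulated data. Named genes were all 42 members, Jmjd1c, and at most the 3 called genes of smallest p from each other list, with others where a result turned on them: Alb, Clec4f, C4a and Slc40a1.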

Additional observations from a re-analysis of the deposited data

How the results depend on the processing

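The count of members higher in the LKO-labelled libraries lay within 1.5 times of 13 under RLE size factors, library totals only, no filter on low counts, the most abundant transcript per gene and DESeq2 (9 to 14), and ranged from 7 to 17 with a library left out (8 without WT 1). The count lower was 3 under the other settings, but 1 with the most abundant transcript per gene, and 1 to 3 with a library left out. When a library was left out, the lone library of its group was assumed to vary like the other group. With the replicate number as a block the counts were 14 and 3, F8 then passing (adjusted p = 0.0483). The numbers did not pair the libraries (correlation of deviations -0.00461), and the block lost no call. The medians of complement and coagulation members kept their sign in every setting, at 0.14 to 0.251 and at 0.011 to 0.146, with the coagulation median at 0.02 with library totals only. No called member changed sign. Signs changed 20 times among members that did not pass the test. With library totals only, Masp2 went to -0.009, F2 to -0.014, F12 to -0.004 and Kng1 to -0.025, and with the most abundant transcript F9 went to 0.068. With a library left out, values ranged from -0.003 to 0.084 for C1s1, -0.025 to 0.177 for Cfi, -0.152 to 0.251 for Masp1, -0.011 to 0.062 for Masp2, -0.045 to 0.085 for F2, -0.173 to 0.1 for F5, -0.139 to 0.072 for F9, -0.05 to 0.007 for Klkb1, -0.021 to 0.04 for Kng1, -0.039 to 0.146 for Plg, -0.067 to 0.013 for Proc and -0.21 to 0.099 for Proz. Members with an H3K9me2 summit in both fasted replicates, 22 within 1000 bp, were 14 within 500 bp, 3 with the 1297 strongest summits of each sample, 36 in WT fasted 2 alone and 37 in either replicate. For refed livers the 0 members in both replicates became 36 in WT refed 2 alone and 36 in either. ATAC summits in WT fasted livers, 0 in both replicates, were 3 in either and in WT fasted 1. The summit lists give no depth, so a missing summit is no sign of a missing signal.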
